A study of Homo sapiens with 9 samples.

Results

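The transcript levels of 9 genes of the NRF2 and glutathione defence system were examined in TC-32 cells, a human Ewing sarcoma line in permanent culture, in which EWSR1::FLI1 is present. The genes were chosen by symbol: NFE2L2, KEAP1, SLC7A11, GCLC, GCLM, TXNRD1, SRXN1, NQO1 and HMOX1. Each symbol matched 1 row among the 58381 genes of the deposited count and FPKM tables, and all 9 passed the filter on low counts that kept 17235 genes. NRF2, the protein product of NFE2L2, is a transcription factor that binds antioxidant response elements in DNA together with small MAF proteins. KEAP1 holds NRF2 in the cytoplasm and hands it to a CUL3 ubiquitin ligase, and oxidants or electrophiles that modify KEAP1 let NRF2 accumulate. Its best known targets import cystine, build glutathione, regenerate thioredoxin and peroxiredoxin, and detoxify quinones and haem.

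There were 3 groups with 3 libraries each, made from bulk RNA. RFP cells carry the pLOC lentiviral vector with red fluorescent protein, and ETS1-Low and ETS1-High cells carry pLOC with an ETS1 cDNA. The series describes the ETS1 cells as single cell clones, with ETS1 in the High group at about the level of fusion-depleted cells and lower in the Low group, and all cells keep the fusion. The treatment text covers transduction, puromycin selection and single cell sorting for all libraries. How many clones stand behind a group, and whether replicates were separate cultures, is not stated, so a p-value measures the spread between these libraries only, and the effect of ETS1 cannot be told apart from a difference between clones.

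Totals of expected counts ran from 39484704 to 46654734 per library. ETS1, the introduced gene, had 2.00 ± 0.17 CPM (TMM-normalised counts per 1e6) in RFP, 10.6 ± 0.30 in ETS1-Low and 19.1 ± 0.81 in ETS1-High (SD, n = 3), in the order of the labels. Of 10 Ewing sarcoma markers, 9 exceeded 1 FPKM in each group, and FATE1 had at most 1 count in a library. Haematopoietic, epithelial and endothelial markers, 4 of each, summed to at most 1.14, 1.44 and 2.96 FPKM in a library, while 4 fibroblast markers summed to 5.66 to 12.7 FPKM, nearly all of it COL1A1. In bulk RNA fewer cells with a transcript and less of it per cell cannot be told apart.

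Both ETS1 groups differed from RFP in every one of the 9 genes: 8 were higher and GCLC was lower. The counts come from the edgeR quasi-likelihood test at a Benjamini-Hochberg adjusted p under 0.05 over all 17235 genes, with all 9 libraries in 1 fit. In ETS1-High against RFP 9 of 9 were called, where 74.2% of all tested genes were called, 37.0% higher and 37.2% lower. In ETS1-Low against RFP 9 of 9 were called, where 74.1% of all tested genes were, 37.9% higher and 36.2% lower. In both comparisons the ETS1 and RFP libraries did not overlap for any of the 9, as for 75.5% (ETS1-High) and 76.0% (ETS1-Low) of all tested genes. A call was therefore the common outcome for any gene here. The median log2 fold change of the 9 was 0.58 in ETS1-High and 0.45 in ETS1-Low, beside medians of -0.01 and 0.01 over all tested genes, among which rises and falls balance. In size without regard to sign, the median change of all tested genes was 0.40 and 0.41. By size the 9 ranked from the percentile 24.8 (KEAP1) to 81.7 (SLC7A11) of all tested genes in ETS1-High, and from 32.4 (KEAP1) to 86.4 (SLC7A11) in ETS1-Low, so they spread over the ordinary range. Both comparisons use the same RFP libraries. At least 2-fold was reached by 1 member, SLC7A11, in each, where 21.0% and 20.6% of all genes were called with such a change.

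**Figure D1:**
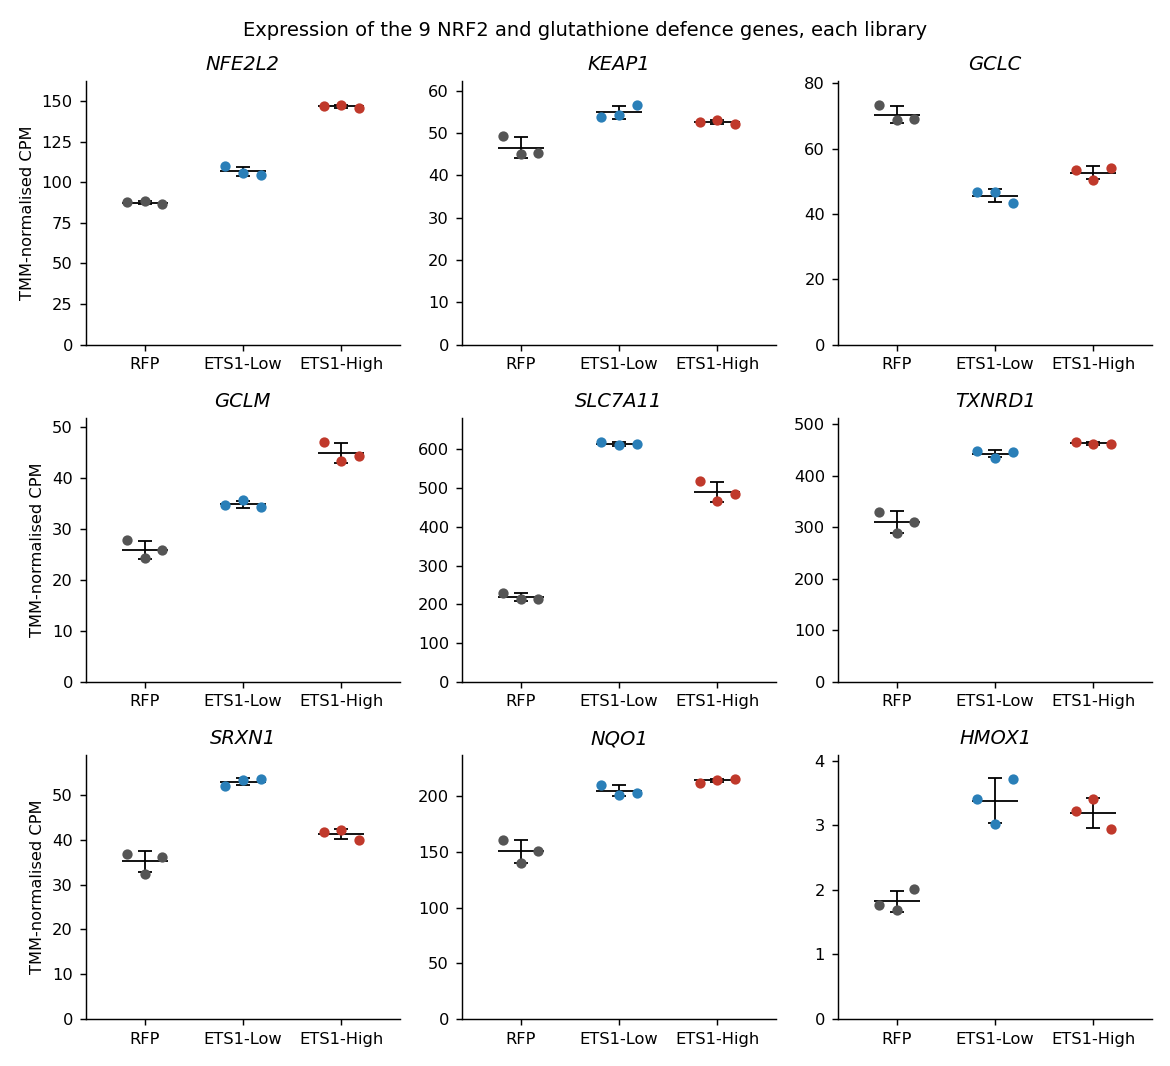
TMM-normalised CPM of each of the 9 genes (vertical axes from 0) in the 3 libraries of RFP, ETS1-Low and ETS1-High; points are libraries, the long bar is the mean and the whiskers the SD. GCLC is the gene whose RFP libraries, at 68.7 to 73.4 CPM, lie above all others; SLC7A11 and SRXN1 peak in ETS1-Low, NFE2L2 and GCLM in ETS1-High.

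The regulator came first. NFE2L2 (ENSG00000116044.15; protein coding, minus strand of chromosome 2, 177218667 to 177392756, GRCh38 as all positions here) encodes NRF2 itself. Its RFP libraries had 87.8, 88.2 and 86.4 CPM. The ETS1-Low libraries had 110.0, 105.5 and 104.6 CPM, and the ETS1-High libraries 146.8, 147.6 and 145.9 CPM. The 3 groups did not overlap and stood in the order of their ETS1 levels. NFE2L2 rose by 0.75 on the log2 scale in ETS1-High against RFP (SE 0.03; adjusted p 1.99e-27, edgeR), and the rise in ETS1-Low was 0.29 (SE 0.03; adjusted p 1.44e-11, edgeR). Between ETS1-High and ETS1-Low the log2 fold change was 0.46 (edgeR adjusted p 1.4e-18, SE 0.03).

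Genes near NFE2L2 on chromosome 2 moved the same way. The 73 expressed genes within 10 Mb on either side shifted against RFP by medians of 0.55 (ETS1-High) and 0.34 (ETS1-Low), log2. NFE2L2 lay 0.20 above that median in ETS1-High and 0.05 below it in ETS1-Low (difference -0.05). The part of the region in the result was not tested. In log2(FPKM + 1) the rise in ETS1-Low was 0.11 (limma adjusted p 0.00792). In GENCODE v44, exons of NFE2L2 overlap HNRNPA3 on the opposite strand by 3509 bases, and HNRNPA3 had 33400 to 48417 expected counts per library. The library kit keeps the strand, but whether the counting used it is not given in the sources used here, so a contribution from HNRNPA3 to these counts was not tested.

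KEAP1 (ENSG00000079999.13; chromosome 19, 10486125 to 10503558, minus strand), the repressor of NRF2, had the smallest changes of the 9 against RFP. Its libraries had 49.4, 45.1 and 45.3 CPM in RFP, 53.8, 54.4 and 56.7 in ETS1-Low and 52.6, 53.0 and 52.2 in ETS1-High. Both ETS1 groups lay above RFP without overlap. The log2 fold change was 0.18 in ETS1-High (SE 0.04; adjusted p 5.11e-05, edgeR) and 0.24 in ETS1-Low (SE 0.04; adjusted p 2e-07, edgeR). Both calls were lost in FPKM, where log2(FPKM + 1) differed by 0.04 (limma adjusted p 0.502) and 0.10 (limma adjusted p 0.122). FPKM values had no TMM scaling. On that scale all genes with a mean of at least 1 FPKM had medians of -0.08 and -0.07. The 394 genes around KEAP1 had medians of 0.26 and 0.29 in these comparisons, larger than the change of KEAP1.

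The level of NFE2L2 relative to KEAP1 was set out per length, as a ratio of FPKM values within a library. It was 1.38, 1.62 and 1.54 in RFP, 1.65, 1.48 and 1.43 in ETS1-Low, and 2.30, 2.16 and 2.17 in ETS1-High. The ETS1-High libraries stood above all others, and those of RFP and ETS1-Low overlapped. Means were 1.51 ± 0.12, 1.52 ± 0.11 and 2.21 ± 0.08 (SD, n = 3). An exact permutation test of 3 libraries against 3 gave a two-sided p of 0.1 for ETS1-High against either other group, the smallest it can give, and an exact p of 1 for ETS1-Low against RFP.

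The transcript with the largest changes of the 9 against RFP was that of the cystine importer. SLC7A11 (ENSG00000151012.13; chromosome 4, 138164097 to 138242349, minus strand) encodes xCT, the antiporter subunit that brings in cystine for glutathione. Its RFP libraries had 229.9, 213.7 and 212.9 CPM. The ETS1-Low libraries had 618, 610.1 and 613 CPM, and those of ETS1-High 518, 467 and 486 CPM. ETS1-Low was highest and RFP lowest, with no overlap between any groups. SLC7A11 rose 2.80-fold in ETS1-Low (log2 1.49, SE 0.03; adjusted p 5.35e-33, edgeR) and 2.24-fold in ETS1-High (log2 1.16, SE 0.03; adjusted p 2.84e-29, edgeR). The ETS1-High level lay below that of ETS1-Low (log2 -0.32, SE 0.03; adjusted p 2.58e-11, edgeR). The 38 genes around SLC7A11 moved against RFP by medians of 0.70 (ETS1-High) and 0.55 (ETS1-Low), and SLC7A11 lay 0.46 and 0.94 above these medians. Of the 38, 73.7% (ETS1-High) and 84.2% (ETS1-Low) had a log2 fold change below that of SLC7A11. Between the ETS1 groups its neighbours had a median of 0.17, opposite in sign to its own change.

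SLC3A2 encodes 4F2hc, the heavy chain that carries xCT to the membrane. It rose with its partner, from 126.1 ± 3.79 CPM (RFP) to 184.7 ± 1.48 in ETS1-Low and 176.3 ± 1.74 in ETS1-High. Its log2 fold changes were 0.55 (adjusted p 2.97e-22, edgeR) and 0.48 (adjusted p 4.8e-20, edgeR), against local medians of 0.46 and 0.42.

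The 2 subunits of glutamate-cysteine ligase, which makes the first and rate-limiting step of glutathione synthesis, moved in opposite directions. GCLC (ENSG00000001084.11; chromosome 6, 53497341 to 53616970, minus strand) encodes the catalytic subunit. It had 73.4, 68.7 and 69.2 CPM in the RFP libraries, 46.8, 46.7 and 43.4 in ETS1-Low and 53.4, 50.5 and 54.2 in ETS1-High. Every ETS1 library lay below every RFP library, and ETS1-High lay above ETS1-Low. GCLC fell by 0.63 on the log2 scale in ETS1-Low (SE 0.04; adjusted p 1.5e-20, edgeR) and fell by 0.42 in ETS1-High (SE 0.04; adjusted p 1.92e-14, edgeR). ETS1-High exceeded ETS1-Low by 0.21 (SE 0.04; adjusted p 8.57e-06, edgeR). The 46 genes around GCLC had medians of -0.22 and -0.17 against RFP.

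GCLM (ENSG00000023909.9; chromosome 1, 93885199 to 93909456, minus strand) encodes the modifier subunit, which raises the affinity of the enzyme for glutamate. Its libraries had 27.8, 24.3 and 25.9 CPM in RFP, 34.7, 35.7 and 34.3 in ETS1-Low and 47.1, 43.4 and 44.4 in ETS1-High. As with NFE2L2, the groups stood in the order of their ETS1 levels without overlap. The log2 fold change was 0.43 in ETS1-Low (SE 0.05; adjusted p 6.92e-12, edgeR), 0.79 in ETS1-High (SE 0.04; adjusted p 8.42e-22, edgeR) and 0.36 between the ETS1 groups (SE 0.04; adjusted p 3.56e-10, edgeR). GCLM lay 0.24 and 0.69 above the median of its 69 neighbours in ETS1-Low and ETS1-High against RFP.

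Per length, GCLC exceeded GCLM in every library, by a factor that depended on the group. The ratio of GCLC to GCLM in FPKM was 3.46, 4.09 and 3.60 in RFP, 1.66, 1.75 and 1.57 in ETS1-Low and 1.49, 1.47 and 1.46 in ETS1-High. RFP stood apart from both ETS1 groups, and all ETS1-High libraries were below all ETS1-Low libraries. The means were 3.72 ± 0.33, 1.66 ± 0.09 and 1.47 ± 0.02 (SD, n = 3). The two-sided exact permutation p was 0.1 for each pair of groups, the smallest that 3 libraries against 3 can give. Over the 6 comparisons of both ratios, the Benjamini-Hochberg adjusted value of each exact p of 0.1 was 0.12.

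**Figure D2:**
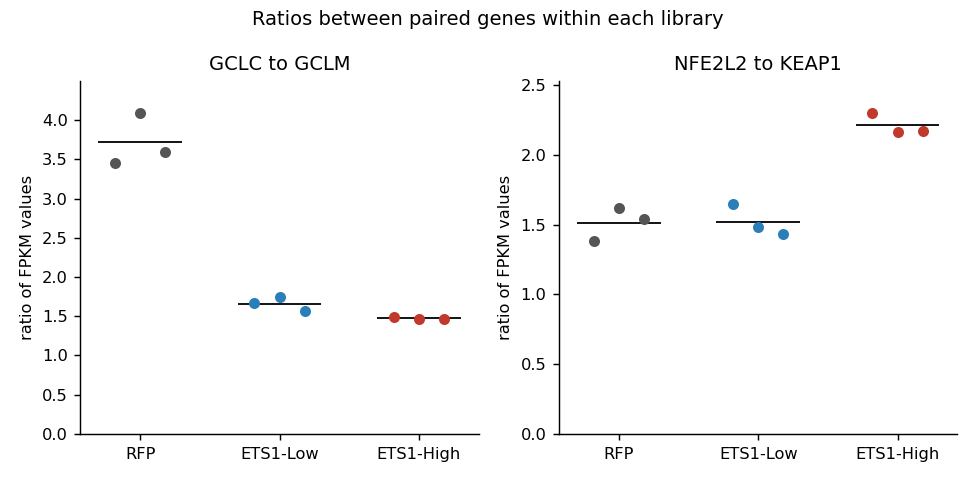
Ratio of FPKM values within each library (vertical axes from 0) for GCLC to GCLM (left) and NFE2L2 to KEAP1 (right); points are the 3 libraries of a group and the line is their mean. The GCLC to GCLM ratio falls from a mean of 3.72 in RFP to 1.66 and 1.47, while the NFE2L2 to KEAP1 ratio averages 2.21 in ETS1-High beside 1.51 and 1.52.

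TXNRD1 (ENSG00000198431.15; chromosome 12, 104215779 to 104350307, plus strand) encodes the cytosolic thioredoxin reductase, a selenoprotein that uses NADPH to keep thioredoxin reduced. It had 330.4, 288.8 and 310.6 CPM in the RFP libraries, 447, 435 and 445 in ETS1-Low and 465, 461 and 461 in ETS1-High. All ETS1 libraries lay above all RFP libraries. TXNRD1 rose by 0.58 in ETS1-High (SE 0.03; adjusted p 1.89e-18, edgeR) and by 0.51 in ETS1-Low (SE 0.03; adjusted p 7.61e-17, edgeR) on the log2 scale. The ETS1 groups differed by 0.06 (95% interval -0.00 to 0.13; adjusted p 0.0924, edgeR), although their libraries did not overlap. The 110 genes around it had medians of 0.08 and 0.05 against RFP.

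SRXN1 (ENSG00000271303.1; chromosome 20, 646615 to 653200, minus strand) encodes sulfiredoxin, which restores over-oxidised peroxiredoxins. Its libraries had 37.0, 32.5 and 36.1 CPM in RFP, 52.1, 53.4 and 53.6 in ETS1-Low and 41.8, 42.2 and 40.1 in ETS1-High. ETS1-Low was highest, and ETS1-High lay between it and RFP without overlap. SRXN1 rose by 0.59 in ETS1-Low (SE 0.04; adjusted p 2.96e-18, edgeR) and by 0.23 in ETS1-High (SE 0.04; adjusted p 2.68e-06, edgeR), and ETS1-High lay below ETS1-Low (log2 -0.36, SE 0.04; adjusted p 8.06e-11, edgeR). The rise in ETS1-High was 0.12 in log2(FPKM + 1), with a limma adjusted p of 0.0339, and 0.0665 without a filter on low values. The 60 genes around SRXN1 had medians of -0.06 (ETS1-High) and -0.04 (ETS1-Low) against RFP.

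NQO1 (ENSG00000181019.12; chromosome 16, 69706996 to 69726668, minus strand) encodes a quinone reductase that is widely used as a readout of NRF2 activity. It had 160.4, 140.5 and 150.7 CPM in RFP, 210.6, 201.4 and 203.3 in ETS1-Low and 212.4, 215.2 and 215.4 in ETS1-High. RFP stood below both ETS1 groups. The log2 fold change was 0.51 in ETS1-High (SE 0.03; adjusted p 1.01e-16, edgeR) and 0.45 in ETS1-Low (SE 0.03; adjusted p 6.4e-15, edgeR), while the 120 neighbours of NQO1 had medians of 0.00 and -0.06. The ETS1 groups differed by 0.06 (95% interval -0.00 to 0.13; adjusted p 0.102, edgeR).

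HMOX1 (ENSG00000100292.16; chromosome 22, 35380361 to 35394214, plus strand) encodes haem oxygenase 1, the inducible enzyme that breaks down haem. It was the least abundant of the 9, with 79 to 98 counts per library in RFP, 129 to 152 in ETS1-Low and 127 to 153 in ETS1-High. These were 1.77, 1.69 and 2.01 CPM in RFP, 3.41, 3.02 and 3.71 in ETS1-Low and 3.22, 3.40 and 2.93 in ETS1-High. Both ETS1 groups lay above RFP and overlapped each other. HMOX1 rose by 0.89 in ETS1-Low (SE 0.14; adjusted p 9.21e-08, edgeR) and by 0.81 in ETS1-High (SE 0.14; adjusted p 7.66e-07, edgeR) on the log2 scale. The difference between the ETS1 groups was -0.08 (95% interval -0.33 to 0.17; adjusted p 0.602, edgeR). In log2(FPKM + 1) the rises were smaller, at 0.45 in ETS1-Low (limma adjusted p 0.000327) and 0.42 in ETS1-High (limma adjusted p 0.000616), a scale that understates changes of low values. Its 173 neighbours had medians of 0.40 (ETS1-Low) and 0.33 (ETS1-High) against RFP.

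**Figure D3:**
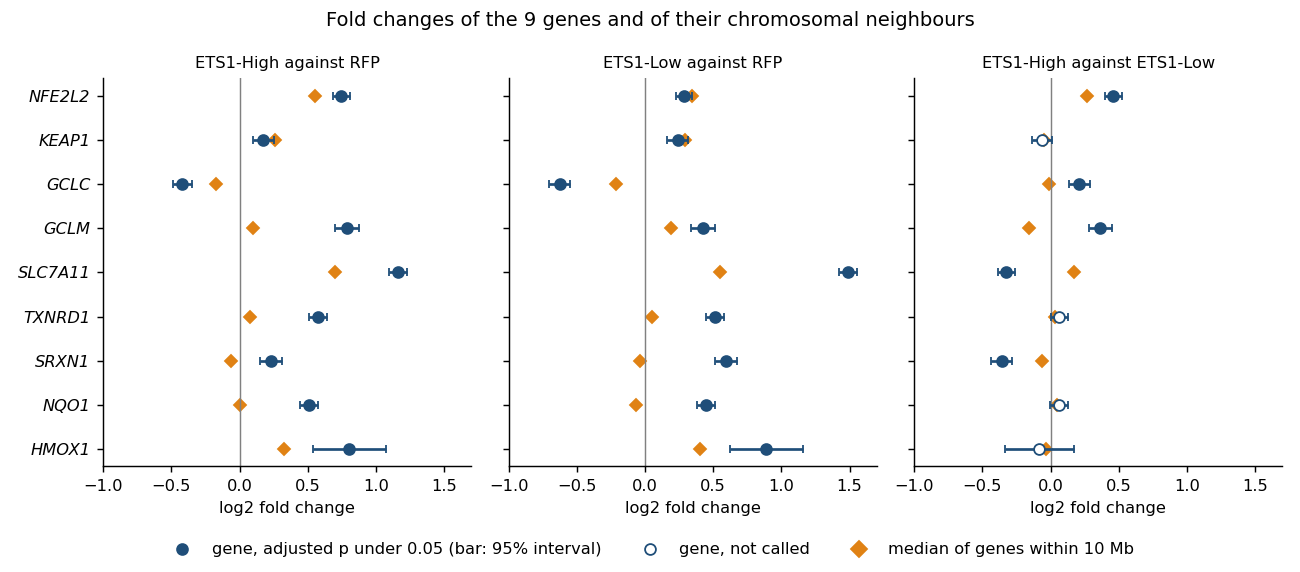
Log2 fold change of each gene (circles, bars 95% intervals, filled where the edgeR adjusted p is under 0.05) and the median log2 fold change of the expressed genes within 10 Mb (diamonds) in the 3 comparisons. NFE2L2 and KEAP1 sit close to the median of their neighbours in ETS1-Low against RFP, whereas SLC7A11 lies 0.94 above the median of its own.

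In ETS1-High against ETS1-Low 5 of the 9 genes were called, where 59.2% of all tested genes were called, 29.9% higher and 29.3% lower. NFE2L2, GCLM and GCLC were higher in ETS1-High, and SLC7A11 and SRXN1 were lower. The remaining 4, KEAP1, TXNRD1, NQO1 and HMOX1, were not called, and for KEAP1 the difference was -0.06 (95% interval -0.14 to 0.01; adjusted p 0.151, edgeR). The libraries of the ETS1 groups did not overlap for 8 of the 9, all but HMOX1, as for 63.2% of all tested genes. None of the 9 reached 2-fold in this comparison, where 9.74% of all genes were called with such a change. TXNRD1 and NQO1 were both called when only those 2 groups were fitted, and without RFP replicate 1 (adjusted p 0.0407 and 0.0486, edgeR) or RFP replicate 2 (0.0329 and 0.0433, edgeR). TXNRD1 was also called with DESeq2 size factors. Their differences stayed between 0.04 and 0.09 over all alternatives.

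Levels of different genes were compared per length, in FPKM. NQO1 was the most abundant transcript of the set in every group, at 159.6 ± 7.58 FPKM in RFP, 202.0 ± 5.24 FPKM in ETS1-Low and 207.9 ± 2.39 FPKM in ETS1-High. TXNRD1 followed at 99.3 ± 6.12, 130.6 ± 3.22 and 138.6 ± 2.54 FPKM, and HMOX1 was last at 1.21 ± 0.12, 2.02 ± 0.14 and 1.94 ± 0.15 FPKM. The middle of the order was rearranged. In RFP, GCLC at 27.1 FPKM, KEAP1 at 25.8 FPKM and SLC7A11 at 25.3 FPKM were neighbours whose libraries overlapped. In ETS1-Low SLC7A11 came after NQO1 and TXNRD1, at 64.8 ± 0.52 FPKM, above NFE2L2 at 42.1 ± 1.25 FPKM, while GCLC stood below SRXN1, at 15.7 ± 0.46 against 20.3 ± 0.41 FPKM. In ETS1-High NFE2L2 again held the place after TXNRD1, at 58.7 ± 0.54 FPKM, with SLC7A11 next at 52.1 ± 3.03 FPKM. In both ETS1 groups no neighbours in the order overlapped.

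**Figure D4:**
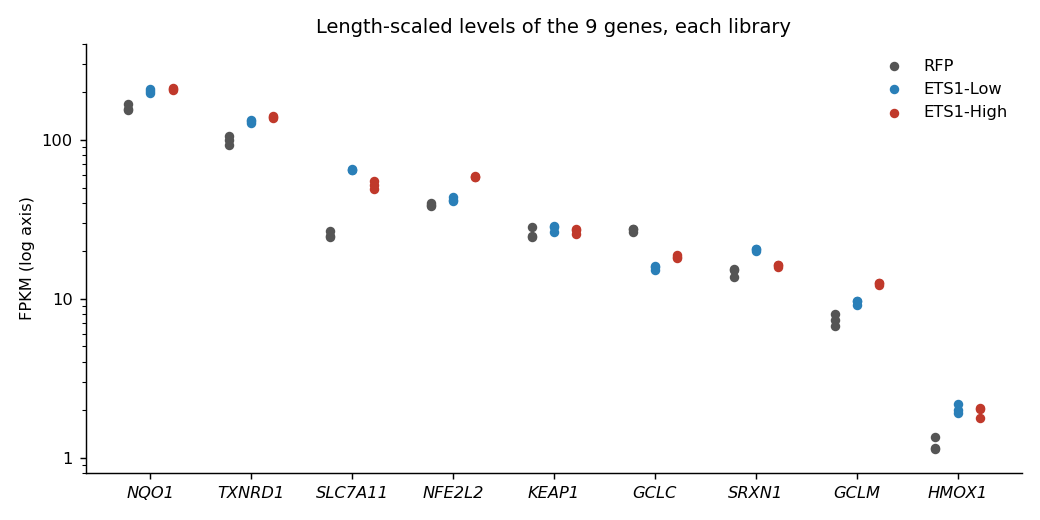
FPKM of the 9 genes (log axis), 1 point per library, ordered by mean level, with RFP, ETS1-Low and ETS1-High side by side. The genes span from about 1.13 FPKM for HMOX1 in RFP to 209.9 FPKM for NQO1 in ETS1-High, and GCLC is the gene whose RFP points lie highest.

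The windows from 250 bases before to 50 after annotated starts were searched for binding motifs, since NRF2 acts through such elements near several of these genes. RefSeq (GRCh38.p14) gave 10 windows for 7 of the 9 genes; SLC7A11 and HMOX1 had no entry. The core of the antioxidant response element, TGACNNNGC on either strand, matched in 4 of the 10 windows, those of GCLM, TXNRD1 and KEAP1, against 13.3% of all 35116 windows. A site in each of these 3 genes is shown because the letters were nearly the same. Other matches to the core, TGACACGGC in KEAP1 and TGACTTCGC and TGACGGAGC in TXNRD1, are not shown. The 3 sites are printed on the strand of the gene, with the match in capitals, as the reverse complement GCNNNGTCA.
GCLM: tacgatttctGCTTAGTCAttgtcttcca
KEAP1: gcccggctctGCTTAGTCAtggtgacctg
TXNRD1: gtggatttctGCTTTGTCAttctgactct
The GCLM site (chr1:93909446-93909474, minus strand) had its match at positions -34 to -26 from the start, counting the base before the start as -1. That of KEAP1 (chr19:10502784-10502812, minus strand) lay at -31 to -23 of the second of 2 annotated starts, and that of TXNRD1 (chr12:104286920-104286948, plus strand) at -102 to -94 of the second. Of the 29 bases printed, all 29 for KEAP1 and TXNRD1 and 11 for GCLM lie in GENCODE v44 exons of the same gene. The form TGACNAAGC, which all 3 share and which was chosen after the sites were seen, occurred in 0.635% of all windows. These 3 genes rose against RFP by log2 fold changes of 0.79 (GCLM), 0.58 (TXNRD1) and 0.18 (KEAP1) in ETS1-High. In ETS1-Low the rises were 0.43 (GCLM), 0.51 (TXNRD1) and 0.24 (KEAP1). A link between the shared letters and these changes was not tested.

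The AP-1 site TGACTCA, part of whose letters the longer antioxidant response element shares, and the ETS site CCGGAAGT matched in 0 of the 10 windows, against 4.95% and 4.14% of all windows. The pair GGAAGGAA matched in 1, a window of NFE2L2, at -79 to -72 of the upstream one of its 2 annotated starts (3.67% of all windows). The windows of GCLC, NQO1 and SRXN1 held no match to any of these 4 motifs, and of these genes GCLC fell and the others rose. Bases outside the windows were not searched, so elements further from a start could not be seen. For GCLC, the last 100 bases before the start (chr6:53545102-53545201, minus strand) are given as an example of a window with no match.
GCLC: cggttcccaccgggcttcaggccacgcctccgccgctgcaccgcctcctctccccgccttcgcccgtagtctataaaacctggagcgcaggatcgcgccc
A match describes letters in the window and no binding was measured.

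The wider pathway was examined in 9 lists of 199 further genes, of which 169 were tested. The counts of each list stand beside these shares of all tested genes. In ETS1-High against RFP 37.0% were called higher and 37.2% lower. In ETS1-Low against RFP the shares were 37.9% and 36.2%, and between the ETS1 groups 29.9% and 29.3%. Partners and regulators of NRF2 moved in both directions. Of 19 tested, 8 were higher and 9 lower in ETS1-High against RFP, and 8 and 11 in ETS1-Low, with median log2 fold changes of 0.00 and -0.17. BACH1, a repressor that competes for the same DNA elements, rose from 30.0 ± 0.89 CPM (RFP) to 37.3 ± 0.92 in ETS1-Low and 47.6 ± 0.52 in ETS1-High (log2 0.67 in ETS1-High; adjusted p 5.45e-21, edgeR). CUL3, the ligase scaffold that KEAP1 uses, rose by 0.52 in ETS1-High (adjusted p 3.1e-20, edgeR), where the genes around it had a median of 0.56. Its rise in ETS1-Low, 0.20, was not seen in FPKM (-0.00; limma adjusted p 0.926). EP300, a histone acetyltransferase, rose by 0.68 in ETS1-High (adjusted p 4.84e-25, edgeR). BACH2, a relative of BACH1, had 7.26 ± 0.65 CPM in RFP, 1.06 ± 0.20 in ETS1-Low and 5.36 ± 0.66 in ETS1-High.

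Other NRF2 target genes were called in both directions. Of 39 tested, 19 were higher and 14 lower in ETS1-High against RFP (median 0.07), and 24 were higher and 10 lower in ETS1-Low (median 0.38). In ETS1-High against ETS1-Low 15 were higher and 22 lower (median -0.21). The medians of the 9 members against RFP were 0.58 (ETS1-High) and 0.45 (ETS1-Low). CBR3, a carbonyl reductase, rose from 11.4 ± 0.29 CPM (RFP) to 23.5 ± 0.28 in ETS1-Low and 34.3 ± 2.68 in ETS1-High. AKR1C3, an aldo-keto reductase, fell from 33.9 ± 2.78 CPM (RFP) to 21.4 ± 0.86 in ETS1-Low and 4.24 ± 0.42 in ETS1-High, a log2 change of -3.00 in ETS1-High (adjusted p 8.57e-35, edgeR). Its near copies AKR1C1 and AKR1C2, named after their values were seen, changed by -1.92 and -4.57 in ETS1-High against RFP. AKR1C1 had 2.06 ± 0.31 CPM in RFP, 1.86 ± 0.23 in ETS1-Low and 0.54 ± 0.17 in ETS1-High. AKR1C2 had 4.84 ± 0.38, 1.58 ± 0.13 and 0.20 ± 0.10 CPM. Reads could be divided between these copies in estimation.

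Among the genes of glutathione synthesis, cycling and breakdown, 6 of 20 were higher and 9 lower in ETS1-High against RFP, and 7 and 8 in ETS1-Low. GSR, which reduces oxidised glutathione, had 133.8 ± 3.88 CPM in RFP, 181.3 ± 2.47 in ETS1-Low and 103.5 ± 1.62 in ETS1-High. It thus rose in ETS1-Low by 0.44 (adjusted p 2.16e-18, edgeR) and fell in ETS1-High by 0.37 (adjusted p 2.45e-15, edgeR), where its neighbours had medians of 0.05 and -0.34. GGCT and CHAC1, both of which act in glutathione breakdown, fell in ETS1-High by 0.73 and 1.54 (adjusted p 3.55e-24 and 2.92e-18, edgeR).

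Glutathione peroxidases, transferases and glutaredoxins were split: 10 of 25 higher and 9 lower in ETS1-High, 11 and 8 in ETS1-Low. MGST3, a microsomal transferase, fell from 129.7 ± 0.94 CPM (RFP) to 28.3 ± 0.60 in ETS1-Low and 25.6 ± 0.71 in ETS1-High (log2 -2.34 in ETS1-High; adjusted p 3.7e-46, edgeR). GSTM4, a cytosolic transferase of the mu class, rose from 62.7 ± 1.78 to 273.9 ± 0.74 and 115.6 ± 2.10 CPM, with its peak in ETS1-Low. The mu class genes are near copies in a cluster, so their counts may be divided between them. GSTK1, of the kappa class, rose from 13.2 ± 0.35 to 36.4 ± 1.60 and 34.0 ± 1.27 CPM.

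Thioredoxins, peroxiredoxins and their partners gave 8 higher and 9 lower of 20 in ETS1-High, and 8 and 6 in ETS1-Low. SESN3 and SESN2, which encode sestrins, went opposite ways. SESN3 rose from 41.0 ± 1.23 CPM (RFP) to 220.6 ± 6.31 in ETS1-Low and 124.4 ± 4.56 in ETS1-High, and SESN2 fell from 31.7 ± 1.42 to 22.2 ± 0.84 and 11.7 ± 0.59 CPM. PRDX3, the mitochondrial peroxiredoxin, had 204.7 ± 7.18, 267.4 ± 7.85 and 150.9 ± 0.56 CPM. MSRB3, a methionine sulfoxide reductase, had 12.7 ± 1.02 and 12.6 ± 1.21 CPM in RFP and ETS1-Low and rose to 30.6 ± 0.72 CPM in ETS1-High.

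Of 9 tested genes that make or remove superoxide and peroxide, or assist in it, 7 were higher and 1 lower in ETS1-High and 6 and 1 in ETS1-Low. The 6 higher in both were SOD1, SOD2, CAT, CCS, NQO2 and PRNP, none of them an oxidase that makes superoxide. Of the oxidases, CYBB was lower in both, XDH was higher in ETS1-High and not called in ETS1-Low, and DUOX2 was called in neither; each averaged under 1 CPM in every group, and all genes of this list outside the naming rule are named after their values were seen. SOD2, the mitochondrial superoxide dismutase, rose from 81.0 ± 0.92 CPM (RFP) to 99.8 ± 2.02 in ETS1-High (log2 0.30; adjusted p 3.13e-11, edgeR). CCS, the copper chaperone of SOD1, rose by 0.61 in ETS1-High (adjusted p 8.68e-16, edgeR), and PRNP by 0.79 (adjusted p 7.53e-29, edgeR). Haem and iron genes gave 8 of 16 higher and 5 lower in each ETS1 group. FTH1, the ferritin heavy chain, rose from 1005 ± 30.5 CPM (RFP) to 1648 ± 24.6 in ETS1-Low and 1477 ± 38.1 in ETS1-High. SLC40A1, the iron exporter ferroportin, rose from 0.61 ± 0.09 to 3.29 ± 0.13 and 7.01 ± 0.15 CPM, and STEAP3, a ferric reductase, fell from 48.1 ± 0.81 to 32.2 ± 1.73 and 16.4 ± 0.70 CPM.

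SLC7A11 is also a target of ATF4, the transcription factor of the amino acid stress response. Genes of that response formed a list as well, and a link to the change of SLC7A11 was not tested. Of 21 such genes 4 were higher and 15 lower in ETS1-High against RFP (median -0.44), beside 37.0% and 37.2% of all tested genes. In ETS1-Low 6 were higher and 8 lower (median 0.00), beside 37.9% and 36.2%. ASNS, asparagine synthetase, fell from 130.4 ± 4.93 CPM (RFP) to 57.0 ± 2.10 in ETS1-Low and 37.2 ± 1.11 in ETS1-High (log2 -1.81 in ETS1-High; adjusted p 4.41e-41, edgeR). The amino acid transporter gene SLC1A4 rose by 0.71 in ETS1-High (adjusted p 7.65e-27, edgeR). CEBPB stood at 175.4 ± 4.03 (RFP), 209.3 ± 3.14 (ETS1-Low) and 127.3 ± 4.75 CPM (ETS1-High). Of 16 ferroptosis genes 6 were higher and 4 lower in ETS1-High and 8 and 2 in ETS1-Low. AIFM2, which encodes the ubiquinone reductase FSP1, rose by 0.83 in ETS1-High (adjusted p 4.16e-16, edgeR), and VDAC2, a mitochondrial channel, fell by 0.76 (adjusted p 4.94e-28, edgeR). The share of genes called in these 9 lists ran from 62.5% to 90.5% in ETS1-High against RFP, beside 74.2% of all genes. In ETS1-Low against RFP it ran from 62.5% (ferroptosis) to 100% (NRF2 partners, 19 of 19), beside 74.1%. Between the ETS1 groups it ran from 44.4% (superoxide and peroxide) to 94.9% (other NRF2 targets, 37 of 39), beside 59.2%.

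**Figure D5:**
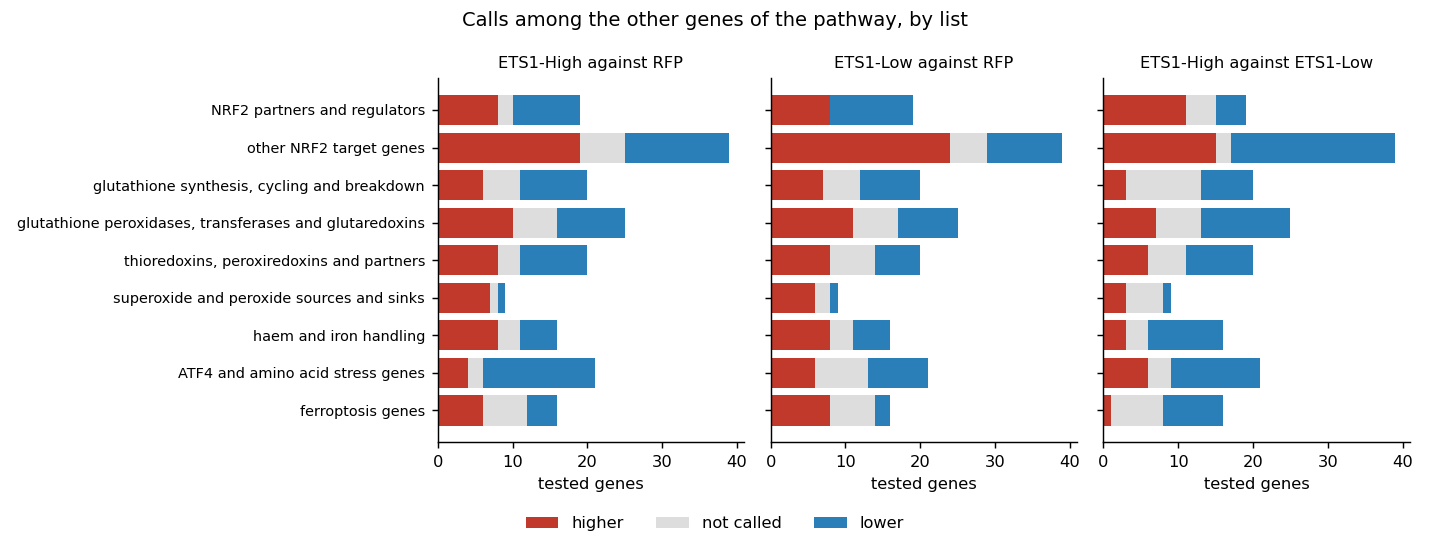
Number of tested genes in each of 9 pathway lists (horizontal axis) called higher, not called or called lower by edgeR in the 3 comparisons. Most lists hold calls in both directions; in ETS1-High against RFP the ATF4 list has 15 genes lower and 4 higher.

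The genes whose pattern over the 9 libraries was most like each member were found by Pearson's r of log2 CPM among the 12391 genes that averaged 100 counts or more. With 3 groups of 3, r mostly reflects the 3 group levels, and all genes share the libraries and their scaling. For SLC7A11 they were JAK1 and OSMR (r of 0.998 for both), and 10.9% of genes had an r of at least 0.95. For NFE2L2 they were RGL1 and SDHA (0.998), with 5.54% of genes at that level. For GCLC they were NTM (0.997) and WDR55 (0.994), and for GCLM KIDINS220 and PLRG1 (both 0.996). TXNRD1 was followed by ISL1 (0.997) and FAM136A (0.996). ISL1 had 0 to 4 counts per library in RFP and 192 to 397 in the ETS1 groups, so it passed the mean of 100 through the latter, and r says nothing of the size of a change. Likewise listed were SPCS2 and ZNF569 for NQO1 (both 0.996), SARS2 and THOP1 for SRXN1 (both 0.990), and RHBDD1 (0.997) and RNF10 (0.995) for HMOX1. KEAP1 had the fewest like it, 0.581% of genes, led by DGCR8 (0.978) and RP11-556O5.7 (0.977).

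Among the 9 members themselves, 12 of the 36 pairs had an r above 0.9 over the 9 libraries. TXNRD1 and NQO1 were closest, at 0.998, and remained close, at 0.959, after the group means were removed. Both varied most within RFP (SD 20.8 and 9.95 CPM) and least within ETS1-High (SD 2.23 and 1.68 CPM). There replicate 1 was the highest library for TXNRD1 and the lowest for NQO1. GCLC and SLC7A11 were the most opposed, at -0.97, but with the group means removed their r was 0.62, so the opposition lay between the groups. Within RFP, replicate 1 was the highest and replicate 2 the lowest library for 6 of the 9 genes (KEAP1, GCLC, GCLM, TXNRD1, SRXN1 and NQO1), an arrangement shown by 21.7% of all tested genes.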

How the data were processed

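RNA-seq of 9 TC-32 libraries was analysed. The authors deposited RSEM expected counts and RSEM FPKM values per gene, per the file headers and names. The submitters' processing notes list cutadapt 4.4, STAR 2.7.3, featureCounts, Subread 2.0.3, limma 3.38.3 and GRCh38, with no roles; the annotation release is not given in the sources used here. Groups came from the sample titles; the letters L and H in column names were taken to mean the Low and High groups, and 0 columns had no library.

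Expected counts were rounded and tested with edgeR 4.0.16 (R 4.3.3) after TMM normalisation and filterByExpr, with group as the only factor. The SE is the absolute log2 fold change divided by the root of F. DESeq2 1.42.0, and limma 3.58.1 on log2(FPKM + 1) or log2(FPKM + 0.1), were alternatives, beside other scalings, filters, a replicate block and leaving out each library. The edgeR, DESeq2 and limma steps were tested on simulated data, limma on CPM in place of FPKM. Few genes were changed there, in ETS1-High only, so data in which most genes are called were not covered. Between 9.00% and 10.3% of values per library were not whole. Replicate pairs differed by 2.66 to 5.19 times sampling noise (chi-square per gene), so each library counted once. Low counts limit HMOX1 most. Intervals cover the spread between libraries.

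The members and lists were chosen with earlier results of these data known. Each list gave at most 3 named genes, ranked by p for ETS1-High versus RFP, and 1 for ETS1-High versus ETS1-Low. They needed 100 counts on average and libraries of the compared groups that did not overlap. Also named were ETS1 and the 2 genes most like each member. Of the genes so named, 1 is not reported here. Positions are from GENCODE v44 by gene identifier. Local medians used genes above a log2 CPM of 1.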

Additional observations from a re-analysis of the deposited data

Results flagged for a closer look

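Of the 9 genes, 5 are listed because their change from RFP in ETS1-High differed from that in ETS1-Low by the edgeR test of the difference itself. The change of NFE2L2 was larger in ETS1-High by 0.46 on the log2 scale, and that of GCLM by 0.36. GCLC fell less in ETS1-High, with a difference of 0.21. SLC7A11 and SRXN1 rose less in ETS1-High, with differences of -0.32 and -0.36. Within 10 Mb the neighbouring genes differed between the ETS1 groups by medians of 0.26 around NFE2L2, -0.16 around GCLM, -0.01 around GCLC, 0.17 around SLC7A11 and -0.07 around SRXN1. The rank test for 1 outlying library within a group needs at least 4 libraries and was not run.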

How the results depend on the processing

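Over 19 alternatives the 27 member results gave 513 values, of which 499 kept their direction and side of the threshold, 7 lost and 7 gained a call, and 0 reversed. The lost calls were those of KEAP1 against RFP in the 3 FPKM fits and of SRXN1 in ETS1-High against RFP in FPKM without a filter; the gained ones were those of TXNRD1 and NQO1 between the ETS1 groups. Leaving out each library in turn left 9 members called in both comparisons with RFP and 5 to 7 in ETS1-High against ETS1-Low, and 12392 to 12971, 12401 to 12977 and 9504 to 10337 genes in all. The replicate block gave 12701, 12729 and 10122 genes in all, and changed no member's call. Same-numbered libraries did not pair: their deviations correlated at -0.09 to 0.11, and 4 of 9 libraries correlated best with their own number. Of all calls against RFP, 49.8% (ETS1-High) and 51.2% (ETS1-Low) were higher, but 38.1% and 36.5% in unfiltered FPKM. The median log2 change over all genes was -0.08 and -0.07 in log2(FPKM + 1) with a mean of at least 1 FPKM. In the main edgeR fit it was -0.01 and 0.01. Reversed among the other genes named were DGCR8 in ETS1-High against RFP (-0.0219 in log2(FPKM + 1) with or without a filter, -0.0227 with 0.1 added) and CUL3 in ETS1-Low against RFP (-0.00355 and -0.00363 likewise); the cause was not tested. Depth limits HMOX1, with 79 to 153 counts per library.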
